A study of Homo sapiens with 4 samples.

Results

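Among the 56271 rows of a gene count table from SKBR3 cells, 10 are genes that set or reverse the phosphorylation of the translation initiation factor eIF2, or that act directly on it: the eIF2alpha kinases EIF2AK1, EIF2AK2, EIF2AK3 and EIF2AK4, the substrate EIF2S1, the phosphatase subunits PPP1R15A and PPP1R15B, and the exchange factor subunits EIF2B2, EIF2B4 and EIF2B5. They were taken by symbol, and all 10 were found. SKBR3 is an established HER2-positive breast cancer cell line. The cells carried a lentiviral vector under the human ubiquitin C promoter that encoded either eGFP alone (eGFP control, 2 libraries) or eGFP together with HA-tagged full-length VIRMA (VIRMA-overexpressing, 2 libraries), and eGFP-positive cells of each were sorted and expanded as a population, so the comparison is between 1 transduced population and another. The culture text attached to the libraries describes a low-oxygen chamber, whereas the methods treat the cells as ordinary cultures, so the oxygen level is uncertain for both groups. The methods call the libraries of a group biological duplicates.

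eIF2 carries the initiator tRNA to the ribosome in its GTP-bound form, and eIF2B recharges it with GTP after each round of initiation. A stress-activated kinase can phosphorylate the alpha subunit of eIF2, and the phosphorylated factor then holds eIF2B in a poorly active state, so that most translation falls while a few mRNAs with upstream open reading frames, ATF4 among them, are translated better. Protein phosphatase 1, brought to eIF2 by PPP1R15A or PPP1R15B, removes the phosphate, and this circuit is known as the integrated stress response (ISR). Counts per gene are RNA levels, and neither phosphorylation nor protein is analysed here. In such bulk libraries a smaller share of expressing cells and less RNA per cell cannot be told apart.

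The libraries held between 81446932 and 86375474 counts each. VIRMA, under its older symbol KIAA1429, was at 8.54 and 8.15 CPM (counts of a gene among 1000000 counts of its library, after TMM scaling) in the controls and at 40.1 and 41.4 CPM in the VIRMA-overexpressing libraries, so the libraries matched their labels. The summed level of 6 luminal epithelial markers was 22400 to 25500 CPM, while that of 5 leukocyte markers was 1.55 to 3.22 CPM and that of 5 fibroblast markers 8.77 to 14.2 CPM, nearly all of it COL1A1. Of 7 erythroid markers, none at 0 in every library, HBB stood out, with 25.7 and 18.4 CPM in the controls and no count in either VIRMA-overexpressing library. The other erythroid markers were each below 1 CPM.

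The start regions of 4 of the genes are shown. PPP1R15A and EIF2AK3 had the largest differences between groups. PPP1R15B encodes the alternative to PPP1R15A as phosphatase subunit, and EIF2AK2 is a kinase that did not pass the test. Each sequence runs 5′ to 3′ on the strand of its gene, from 250 bases before to 20 bases after the RefSeq transcript start (GRCh38.p14). The regions are chr19:48872171-48872440, plus strand, for PPP1R15A; chr1:204411798-204412067, minus strand, for PPP1R15B; chr2:37156961-37157230, minus strand, for EIF2AK2; and chr2:88627445-88627714, minus strand, for EIF2AK3. Capitals mark TGACGTCA and its first part, TGACG, (reverse complement CGTCA) in PPP1R15A, TGATGCAA and TGACG in PPP1R15B, GAAANNGAAA in EIF2AK2, and CCAAT (reverse complement ATTGG) in EIF2AK3.
PPP1R15A: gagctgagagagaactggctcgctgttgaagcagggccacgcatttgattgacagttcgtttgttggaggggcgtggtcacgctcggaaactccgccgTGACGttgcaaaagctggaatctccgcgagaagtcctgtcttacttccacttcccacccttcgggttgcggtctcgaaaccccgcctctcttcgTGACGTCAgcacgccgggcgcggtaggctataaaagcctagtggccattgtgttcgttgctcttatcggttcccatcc
PPP1R15B: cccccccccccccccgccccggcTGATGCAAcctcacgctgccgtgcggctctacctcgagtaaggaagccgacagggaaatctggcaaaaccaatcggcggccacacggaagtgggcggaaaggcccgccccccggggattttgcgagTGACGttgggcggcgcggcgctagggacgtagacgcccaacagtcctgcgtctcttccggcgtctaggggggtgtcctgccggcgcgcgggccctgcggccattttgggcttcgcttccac
EIF2AK2: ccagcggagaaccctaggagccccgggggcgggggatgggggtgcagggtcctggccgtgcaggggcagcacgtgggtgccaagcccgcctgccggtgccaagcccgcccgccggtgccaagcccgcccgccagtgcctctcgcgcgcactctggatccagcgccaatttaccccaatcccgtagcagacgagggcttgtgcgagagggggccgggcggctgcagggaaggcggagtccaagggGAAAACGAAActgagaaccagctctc
EIF2AK3: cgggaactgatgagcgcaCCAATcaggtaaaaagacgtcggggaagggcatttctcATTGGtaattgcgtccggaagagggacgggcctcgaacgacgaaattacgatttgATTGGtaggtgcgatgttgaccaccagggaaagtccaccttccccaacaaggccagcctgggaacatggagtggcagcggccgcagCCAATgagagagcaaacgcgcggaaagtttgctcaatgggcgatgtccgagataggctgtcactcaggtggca

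TGACGTCA, the cyclic AMP response element that ATF/CREB factors can bind, lay 58 bases before the start of PPP1R15A and is present on either strand in 1.83% of the 35116 promoters of this length in the RefSeq table. A further TGACG, which overlaps no other motif searched, began 152 bases before the start. PPP1R15B held TGATGCAA, the core of the composite element that ATF4 can bind together with a C/EBP factor, 227 bases before its start, against 0.832% of all promoters, and a TGACG at 101 bases. TGACG alone is common, at 22.9% of promoters, and EIF2B2, a lower gene, also held it, 242 bases before its start. EIF2AK2 held GAAANNGAAA, the interferon-stimulated response element, across its start, beginning 6 bases before it, against 3.3% of promoters. EIF2AK3 held 4 copies of CCAAT over both strands, a motif that 33.1% of promoters have at least once. CCAAT also occurred in EIF2AK2, PPP1R15B, EIF2B2 and EIF2B4. The copies in EIF2AK2 and PPP1R15B are not capitalised above. No member's region held the endoplasmic reticulum (ER) stress element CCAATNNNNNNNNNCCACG, which 0.0769% of promoters have. The table had entries for 9 of the 10 genes, with 2 for EIF2B4, and none for EIF2AK1. These are matches of letters in a short window and say nothing of whether a factor was bound.

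PPP1R15A showed the largest difference of the set. PPP1R15A encodes GADD34, the stress-inducible subunit that brings protein phosphatase 1 to eIF2. Its level was 40.6 and 40.8 CPM in the controls and 133 and 135 CPM in the VIRMA-overexpressing libraries, so the groups lay far apart and the replicates close together. The log2 fold change was 1.71 (SE 0.0391, 95% confidence interval 1.63 to 1.79, adjusted p by the quasi-likelihood test of edgeR 2.61e-29), or 3.28-fold, and 1.39% of the tested genes had a larger absolute change. The gene lies at chromosome 19, 48872392 to 48876057 (GRCh38, plus strand), and no other row of the table overlaps its exons.

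PPP1R15B encodes CReP, the subunit that is present without stress. It was at 68.7 and 71.7 CPM in the controls and at 107 and 103 CPM in the VIRMA-overexpressing libraries, again without overlap. It rose by a log2 fold change of 0.58 (SE 0.039, adjusted edgeR p 1.45e-15), or 1.5-fold. Per base of the deposited exonic length both PPP1R15 subunits stood at nearly the same level in the controls. There the ratio of PPP1R15A to PPP1R15B in RPKM (counts scaled to exonic length and library total) was 0.999 and 0.961. In the VIRMA-overexpressing libraries this ratio was 2.09 and 2.21. Its mean went from 0.98 ± 0.0266 to 2.15 ± 0.0862 (SD, n = 2), and the exact two-sided permutation test gave p = 0.33, the smallest that 2 libraries against 2 allow. Near equality in the controls rests on the length used. The ratio there was 1.32 and 1.27 with canonical transcript lengths and 0.591 and 0.569 in CPM. The difference between groups was 2.19-fold. Length cancels in that comparison, so it is the same on each scale by construction.

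The catalytic subunits of protein phosphatase 1, which both PPP1R15 proteins recruit and which also serve many other partners, went the other way in part. PPP1CA had 302 and 295 CPM in the controls and 189 and 185 CPM in the VIRMA-overexpressing libraries, and fell by 0.68 on the log2 scale (SE 0.0313, adjusted edgeR p 4.11e-20). PPP1CC fell by 0.56 (SE 0.0373, adjusted edgeR p 1.21e-15), from 121 and 117 to 79.3 and 82.1 CPM. PPP1CB rose by 0.17 (SE 0.0336, adjusted edgeR p 2.43e-05). Of the 3 catalytic subunits 2 were thus lower and 1 higher, while both targeting subunits were higher. Such calls were common in this comparison, since 71% of the 12205 tested genes passed, 35.1% higher and 35.9% lower.

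**Figure D1:**
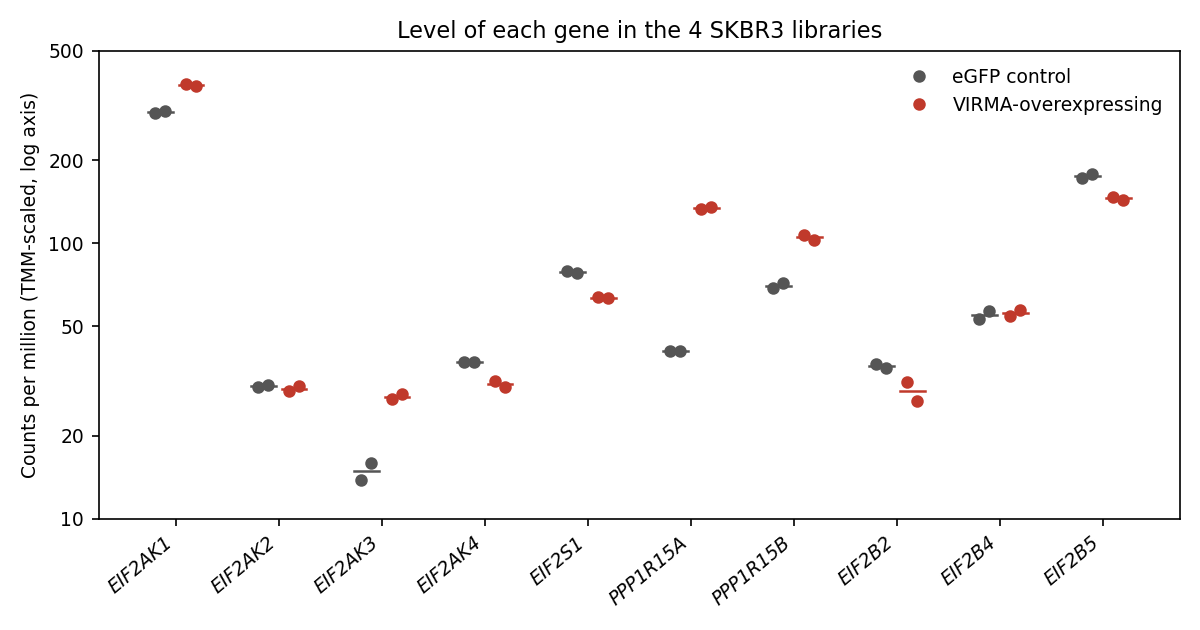
TMM-scaled CPM of the 10 genes on a log axis, with a point for each of the 2 eGFP control (grey) and 2 VIRMA-overexpressing (red) SKBR3 libraries and a line at each group mean. PPP1R15A moves from about the level of EIF2AK4 to above PPP1R15B, EIF2AK3 is lowest in the controls, and the points of EIF2AK2 and EIF2B4 overlap between groups.

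Among the 4 kinases, 2 were higher, 1 was lower and 1 did not pass the test. EIF2AK3 encodes PERK, the transmembrane kinase of the ER that responds to unfolded protein in its lumen. It had 13.8 and 16.0 CPM in the controls and 27.1 and 28.3 CPM in the VIRMA-overexpressing libraries. Both VIRMA-overexpressing libraries were above both controls, and the log2 fold change was 0.89 (SE 0.0723, 95% confidence interval 0.75 to 1.04, adjusted edgeR p 2.36e-13), or 1.86-fold. The control libraries differed from each other more than for most of the set, and the log2 fold change ran from 0.78 without eGFP control replicate 1 to 1.01 without eGFP control replicate 2, on either side of 2-fold. Antisense rows cover 15.1% of its exonic bases and held at most 160 counts each in any library, against at least 1146 for EIF2AK3. Their effect on the counts of EIF2AK3 was not tested.

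EIF2AK1 encodes HRI, the heme-regulated kinase, which also relays mitochondrial stress. Its levels were 298 and 302 CPM in the controls and 379 and 371 CPM in the VIRMA-overexpressing libraries. The groups did not overlap, and the log2 fold change was 0.32 (SE 0.0298, adjusted edgeR p 8.38e-12), or 1.25-fold. AIMP2, a scaffold of the tRNA synthetase complex, lies on the opposite strand and shares 532 exonic bases with EIF2AK1. The AIMP2 counts were 2730 and 2719 in control cells, 3705 and 3656 with VIRMA overexpressed, against at least 24781 for EIF2AK1. Whether reads were counted by strand is not given in the sources used here, so the shared part cannot be told apart. Its effect on the counts of EIF2AK1 was not tested. HBB, whose synthesis in red cell precursors HRI adjusts to heme, moved with the groups as given above, and its part in the EIF2AK1 difference was not tested.

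EIF2AK4 encodes GCN2, the kinase that senses uncharged tRNA when amino acids run short. It was at 37.1 and 37.0 CPM in the controls and at 31.6 and 30.1 CPM in the VIRMA-overexpressing libraries. The groups did not overlap, and it fell by 0.26 on the log2 scale (SE 0.0547, adjusted edgeR p 6.37e-05). EIF2AK2 encodes PKR, the kinase activated by double-stranded RNA and an interferon-stimulated gene. Its levels of 30.0 and 30.7 CPM in the controls and 29.1 and 30.3 CPM in the VIRMA-overexpressing libraries overlapped. The log2 fold change was -0.03 with a 95% confidence interval of -0.15 to 0.09 (adjusted edgeR p 0.645), so a difference of more than about the size seen for EIF2AK4 lies outside the interval in either direction.

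The kinase mRNAs differed widely in level. Per exonic base EIF2AK1 was at 52.3 and 52.8 RPKM in the controls, and the other kinases lay between 2.47 and 3.02 RPKM. EIF2AK1 made up 86.2% ± 0.337 of the summed RPKM of the 4 kinases in control cells, and 86.6% ± 0.342 with VIRMA overexpressed (SD, n = 2). The other kinases changed order below it. EIF2AK3 held 4.08% and 4.66% of the sum in control cells, and 6.34% and 6.74% with VIRMA overexpressed. EIF2AK4 went from 4.99% and 4.88% to 3.36% and 3.25%, and EIF2AK2 from 4.5% and 4.51% to 3.45% and 3.64%. In the controls EIF2AK3 and EIF2AK2 overlapped in level, while in the VIRMA-overexpressing libraries EIF2AK3 was above both of the others. The exact two-sided permutation p was 0.33 for the shares of EIF2AK2, EIF2AK3 and EIF2AK4 and 0.67 for that of EIF2AK1.

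These orders depend on the length used. The deposited length counts the exons of every transcript of a gene, which makes 11957 bases for EIF2AK4, whereas its canonical transcript in GENCODE has 5538 bases. With canonical lengths, an alternative chosen after seeing the data, EIF2AK4 held 8.34% and 8.16% in the controls, above EIF2AK3 at 3.78% and 4.32%. In the VIRMA-overexpressing libraries EIF2AK3 had 5.95% and 6.32% and EIF2AK4 5.67% and 5.5%, so EIF2AK3 was again second, by a smaller margin. In CPM, which is not scaled to length and so favours long transcripts, EIF2AK3 held the smallest share in both groups by the mean, 3.64% and 4.16% in control cells and 5.81% and 6.16% with VIRMA overexpressed, against 6.24% and 6.6% for EIF2AK2 and 6.76% and 6.55% for EIF2AK4 in the latter. The ratio of EIF2AK3 to EIF2AK1 was 1.49 times as high in the VIRMA-overexpressing as in the control libraries. Length cancels in this comparison, so all 3 scales give the same value by construction.

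**Figure D2:**
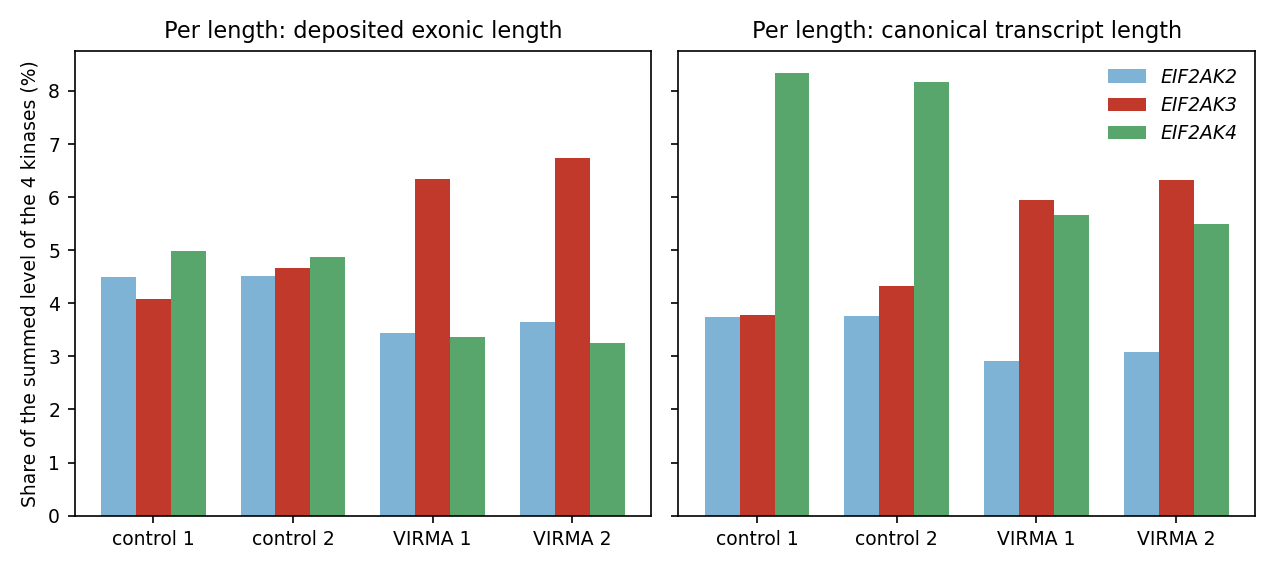
Share of EIF2AK2, EIF2AK3 and EIF2AK4 in the summed level of the 4 eIF2alpha kinases (%), one group of bars for each library, with levels per deposited exonic length (left) and per canonical transcript length (right). The rest, 83.8% to 86.9%, is EIF2AK1; EIF2AK3 is the tallest of the remaining kinases in both VIRMA-overexpressing libraries under either length.

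Other genes that act on the kinases were read from a list of 11. Of these, 6 were higher, 3 lower and 2 did not pass, beside 35.1% higher and 35.9% lower over all tested genes. The median log2 fold change was 0.20 against 0.012 over all. HSPA5 encodes BiP, the ER chaperone that binds PERK and keeps it inactive, and went from 550 and 548 CPM to 1480 and 1470 CPM, a log2 fold change of 1.43 (SE 0.0262, adjusted edgeR p 3.78e-32). DNAJC3 encodes p58IPK, an ER co-chaperone described as an inhibitor of PKR and PERK, and rose from 63.9 and 67.2 to 131 and 123 CPM (log2 fold change 0.95, SE 0.0395, adjusted edgeR p 1.38e-21). IMPACT, which blocks the activation of GCN2 by its partner GCN1, rose from 11.0 and 9.25 to 16.1 and 16.3 CPM (log2 fold change 0.68, SE 0.0889, adjusted edgeR p 2.09e-08). These 3 had the largest absolute changes of the list and are all inhibitors. The list holds activators and inhibitors of the kinases, and no direction common to either was tested.

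EIF2AK2 was also set beside 15 interferon-stimulated genes. Of these, 7 were expressed enough to be tested, 2 were higher, 3 lower and 2 did not pass (71% of all tested genes passed), with a median log2 fold change of -0.12. OAS3, which makes the activator of RNase L, fell from 13.4 and 12.9 to 5.07 and 4.74 CPM (log2 fold change -1.42, adjusted edgeR p 2.4e-14). IRF9, a subunit of the interferon-activated factor ISGF3, rose from 4.11 and 4.16 to 6.54 and 8.11 CPM (log2 fold change 0.82, adjusted edgeR p 1.58e-06). ISG15, a ubiquitin-like modifier, was at -0.25 (adjusted edgeR p 0.00359), a difference that did not pass without VIRMA-overexpressing replicate 2 (-0.19). The list had no common direction.

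The substrate EIF2S1, the alpha subunit of eIF2, was lower. It had 79.1 and 78.2 CPM in the controls and 64.0 and 63.1 CPM in the VIRMA-overexpressing libraries, which did not overlap, and it fell by 0.31 on the log2 scale (SE 0.0397, adjusted edgeR p 1.64e-08), or 1.24-fold. Its partners in the heterotrimer were higher. EIF2S2, the beta subunit, rose from 75.5 and 71.7 to 98.4 and 102 CPM (log2 fold change 0.44, SE 0.0391, adjusted edgeR p 1.98e-12). EIF2S3, the gamma subunit that holds GTP and the initiator tRNA, rose from 198 and 202 to 223 and 220 CPM (log2 fold change 0.15, SE 0.0315, adjusted edgeR p 7.97e-05).

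The mRNA levels of the trimer's subunits therefore moved apart. Per exonic base EIF2S2 was 2.03 and 1.95 times EIF2S1 in control cells, and 3.27 and 3.44 times with VIRMA overexpressed. For EIF2S3 the ratio was 4.07 and 4.2, against 5.67 and 5.68. Both ratios were chosen after their values were seen and have an exact two-sided permutation p of 0.33. CDC123, the assembly factor that joins the alpha and gamma subunits, was 48.4 and 49.4 CPM in the controls and 36.0 and 33.2 CPM in the VIRMA-overexpressing libraries, and fell by 0.5 on the log2 scale (SE 0.0507, adjusted edgeR p 8.25e-11). BZW2, an eIF5 mimic protein, fell by 0.41 (SE 0.0328, adjusted edgeR p 1.45e-13). Of the 8 listed partners of eIF2 and eIF2B, 3 were higher and 5 lower, beside 35.1% and 35.9% of all tested genes. Their median log2 fold change was -0.17, and -0.100 with upper-quartile factors and -0.088 with library totals.

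Among the eIF2B subunits, EIF2B5 and EIF2B2 were lower and EIF2B4 did not pass the test. EIF2B5, the catalytic epsilon subunit, had 173 and 178 CPM in the controls and 147 and 144 CPM in the VIRMA-overexpressing libraries. It fell by 0.27 on the log2 scale (SE 0.033, adjusted edgeR p 6.36e-09). EIF2B2, the beta subunit of the regulatory core, had 36.4 and 35.2 CPM in the controls and 31.4 and 26.7 CPM in the VIRMA-overexpressing libraries. It fell by 0.3 (SE 0.062, adjusted edgeR p 5.76e-05), and VIRMA-overexpressing replicate 2 decided the size: the log2 fold change was -0.19 without it and -0.42 without VIRMA-overexpressing replicate 1. Antisense rows cover 23.6% of the EIF2B2 exons and held at most 34 counts each in any library, and their effect on the counts of EIF2B2 was not tested.

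EIF2B4, the delta subunit, overlapped between groups, with 53.1 and 57.0 CPM in the controls and 54.6 and 57.4 CPM in the VIRMA-overexpressing libraries. Its log2 fold change was 0.02 with a 95% confidence interval of -0.07 to 0.12 (adjusted edgeR p 0.647), and with library totals as the only scaling it passed at 0.108. The antisense row AC074117.10, which shares 199 of its exonic bases, rose from 15.6 and 18.1 to 21.2 and 20.8 CPM. The subunits outside the set of 10 were lower as well. EIF2B1, the alpha subunit, fell by 0.21 on the log2 scale (SE 0.0512, adjusted edgeR p 0.000474). EIF2B3, the gamma subunit and partner of EIF2B5, was at -0.13 (SE 0.051, adjusted edgeR p 0.0194), a call that was lost with upper-quartile factors and with library totals (-0.05, adjusted edgeR p 0.387), and without eGFP control replicate 2 or VIRMA-overexpressing replicate 2 (-0.12 in both, largest adjusted edgeR p 0.087). Of the 5 subunits, 4 were lower in the main test, by small amounts, beside 35.9% of all tested genes.

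The mean RPKM of the 5 eIF2B subunits was 1.0 and 1.03 times that of EIF2S1 in the controls and 1.1 times in each VIRMA-overexpressing library, without overlap and 1.08 times as high on average (exact two-sided permutation p 0.33). The ratio itself depends on the length used and was 1.54 and 1.6 in the controls with canonical transcript lengths, where it was 1.1 times as high in the VIRMA-overexpressing libraries. The eIF2B subunits themselves were not at one level: EIF2B5 had 29.5 and 30.3 RPKM in the controls and EIF2B2 had 6.51 and 6.26.

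**Figure D3:**
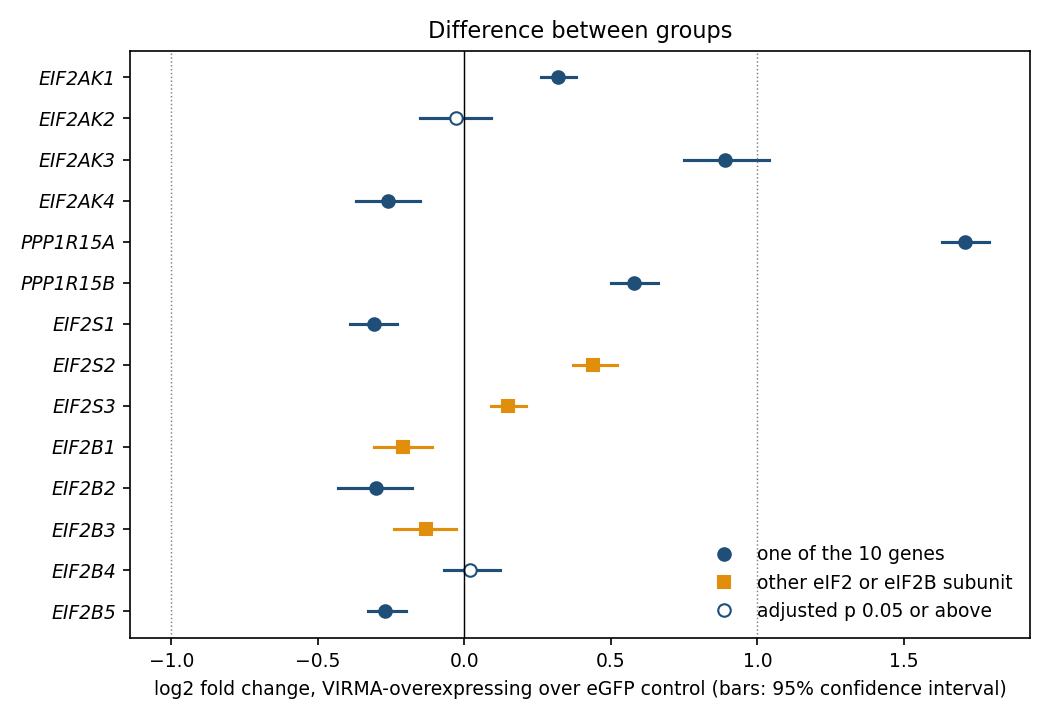
Log2 fold change of VIRMA-overexpressing over eGFP control libraries with its 95% confidence interval (edgeR, 2 libraries a group) for the 10 genes (blue circles) and the remaining eIF2 and eIF2B subunits (orange squares); open symbols did not pass and dotted lines mark 2-fold. PPP1R15A at 1.71 is the only gene past 2-fold, and the EIF2AK3 interval reaches 1.04.

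Counted together, 4 of the 10 genes were higher (EIF2AK1, EIF2AK3, PPP1R15A, PPP1R15B), 4 lower (EIF2AK4, EIF2S1, EIF2B2, EIF2B5) and 2 did not pass. These counts are close to those of any expressed gene here, where 71% passed, 35.1% higher and 35.9% lower, so the number of calls is no result about the set. The same holds for size: the median absolute log2 fold change was 0.304 over the 10 genes and 0.335 over all tested genes, and the median signed change was -0.003 against 0.012. At a threshold of 2-fold, PPP1R15A was the 1 gene that passed, where 4.52% of tested genes were higher and 2.93% lower. When the fold change was tested against 1.2-fold, the 4 higher genes passed and none of the 4 lower genes did. All 10 were above 1 RPKM in every library, so the filter on low values did not depend on the group.

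In order of level per base of the deposited exonic length, the controls ran from EIF2AK1 (52.5 ± 0.355 RPKM, SD, n = 2) through EIF2B5 (29.9 ± 0.546), EIF2S1 (13.5 ± 0.158), PPP1R15B (13.0 ± 0.357), PPP1R15A (12.8 ± 0.00271), EIF2B4 (9.69 and 10.3) and EIF2B2 (6.39 ± 0.174) to EIF2AK4 (3.01 ± 0.0162), EIF2AK2 (2.74 ± 0.0344) and EIF2AK3 (2.67 ± 0.277). PPP1R15B and PPP1R15A were not separated beyond their spread, nor were EIF2AK2 and EIF2AK3. In the VIRMA-overexpressing libraries PPP1R15A, at 44.4 ± 0.285 RPKM, stood second after EIF2AK1 at 69.5 ± 1.4 RPKM. EIF2AK3, at 5.25 ± 0.137 RPKM, was no longer last and was not separated from EIF2B2 at 5.49 ± 0.64 RPKM. EIF2AK4 was then lowest, at 2.66 ± 0.103 RPKM. Several of these places do not hold per base of the canonical transcript. On that scale EIF2B5 (65.6 and 67.3 RPKM) was level with EIF2AK1 (65.8 and 66.4 RPKM) in the controls, and EIF2B4 (31.5 and 33.6 RPKM) was above EIF2S1 (18.5 and 18.2 RPKM). In the VIRMA-overexpressing libraries PPP1R15A (58.2 and 58.7 RPKM) was level with EIF2B5 (59.2 and 57.8 RPKM), and EIF2AK2 (3.02 and 3.12 RPKM) was lowest, below EIF2AK4 (5.89 and 5.58 RPKM).

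The output side of the ISR was read from 11 genes that ATF4 and its partners are known to induce, ATF4 and DDIT3 included. Of these, 10 were higher, none lower and 1 did not pass, beside 35.1% higher and 35.9% lower over all tested genes. The median log2 fold change was 1.37 against 0.012 over all tested genes. ATF4, the transcription factor at the centre of the response, went from 468 and 480 to 778 and 799 CPM (log2 fold change 0.73, SE 0.0282, adjusted edgeR p 1.53e-22). DDIT3, which encodes the stress factor CHOP and drives PPP1R15A in many cells, went from 994 and 1036 counts to 11635 and 11364 (log2 fold change 3.48, SE 0.0462). CHAC1, a glutathione-degrading enzyme, went from 15.2 and 15.8 to 102 and 107 CPM (log2 fold change 2.75), and NUPR1, a small stress-induced chromatin protein, from 223 and 217 to 1070 and 1060 CPM (log2 fold change 2.27). PPP1R15A, itself a target of this branch, was at 1.71. The list ran from -0.0 to 3.48, a range so wide that it also holds EIF2AK1 at 0.32.

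By contrast, 5 factors that can deliver initiator tRNA or assist initiation without eIF2 showed small differences. EIF2A rose by a log2 fold change of 0.29 (SE 0.0526, adjusted edgeR p 7.14e-06) and EIF2D by 0.12 (SE 0.0356, adjusted edgeR p 0.00392), the latter lost with 2 of the other filters on low counts. MCTS1 was at -0.05, DENR at -0.03 and EIF5B at 0.01, and none of these passed (adjusted edgeR p 0.368, 0.721 and 0.914). The median was 0.006.

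**Figure D4:**
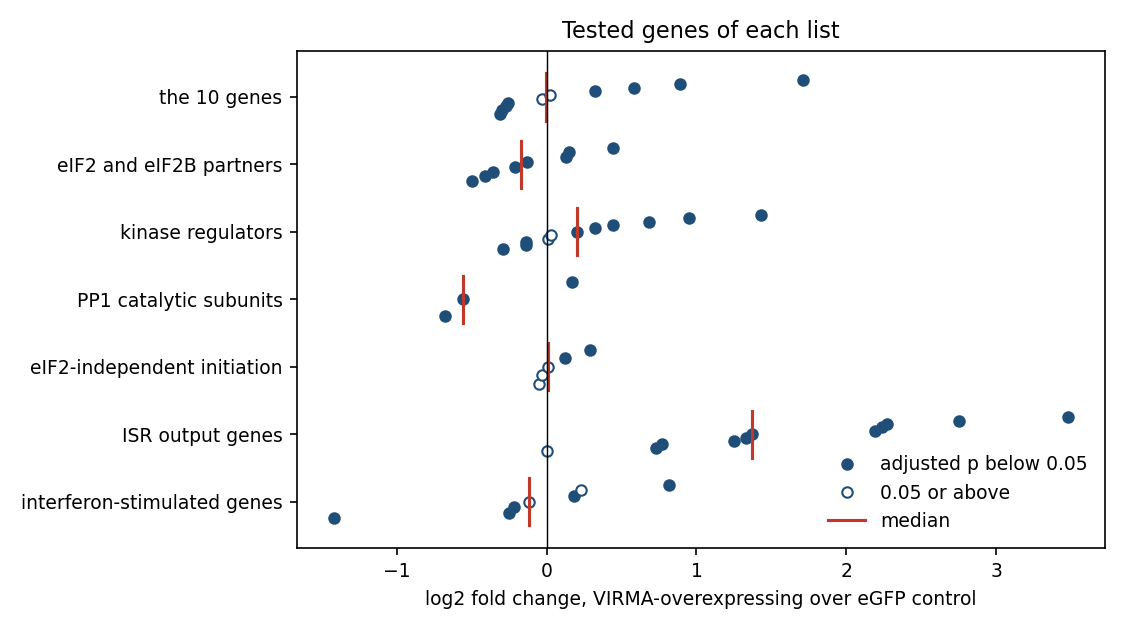
Log2 fold change of VIRMA-overexpressing over eGFP control libraries for each tested gene of the 7 lists, filled where the adjusted edgeR p was below 0.05, with the median of each list as a red line. The ISR output genes have a median of 1.37, the kinase regulators 0.20 and the 3 phosphatase catalytic subunits -0.56, while the 10 genes are spread on both sides of 0.

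Upstream start codons and a common m6A letter pattern were counted in the canonical transcripts of GENCODE, since VIRMA is a scaffold of the complex that writes m6A and since upstream open reading frames mark mRNAs of the ISR. PPP1R15A and PPP1R15B each had 2 ATG triplets in the annotated 5′ leader, EIF2AK2, EIF2AK3 and EIF2S1 had 1 each, and the other 5 genes had none. ATF4 and DDIT3 had 3 each. At least 1 upstream ATG is annotated in 41.5% of 20020 coding genes. GGACT, one form of the m6A consensus, occurred 1.54 times per kilobase in EIF2AK3, 1.33 in PPP1R15B and 1.28 in PPP1R15A, and 0.453 times in EIF2AK1. Among the lower genes of the set it occurred 1.08 times per kilobase in EIF2AK4, 0.929 in EIF2B2, 0.781 in EIF2B5 and 0.241 in EIF2S1. EIF2B4, which did not pass, had 1.22. Outside the set, the higher genes ATF4, EIF2S3, EIF2S2 and DDIT3 had 0.705, 0.289, 0.0 and 0.0. The lower genes EIF2B3 and EIF2B1 had 1.05 and 0.834. The values of higher and lower genes thus overlapped. The median over all coding genes was 0.925, with quartiles of 0.524 and 1.4. Within the set, EIF2AK3 alone was above the upper quartile, and EIF2AK1, EIF2AK2 (0.501) and EIF2S1 were below the lower. Methylation is not analysed here.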

How the data were processed

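Poly-A RNA of SKBR3 cells was sequenced in 4 libraries, 2 a group. The authors trimmed reads with Trimmomatic 0.39, aligned them with STAR 2.5.2a to the human genome and counted them per gene with featureCounts. What they deposited are unnormalized counts of each gene, beside exon coordinates and a total exonic length. Strand setting and treatment of reads with several alignments are not given in the sources used here. Control columns name their group, while the other 2 columns are headed by a number and were taken as VIRMA-overexpressing by elimination.

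RPKM was computed from the counts, the library totals and the deposited lengths. The 12205 genes above 1 RPKM in 2 or more libraries entered the quasi-likelihood test of edgeR 4.0.16 (R 4.3.3, TMM), with no covariate, and p-values were adjusted by Benjamini-Hochberg across these genes. A gene passed at an adjusted p below 0.05. Standard errors were derived from the F statistic. The biological coefficient of variation was 3.93%. An exact two-sided permutation test of 2 against 2 libraries has a smallest p of 0.33, and p-values measure only the spread between these libraries. The test was also run on simulated counts with few changed genes, balanced in direction. Here 71% of the tested genes passed, so that run does not check the scaling or the calls in these data.

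The 10 genes and all lists were chosen with earlier results of these data known. Named besides them are the other eIF2 and eIF2B subunits, ATF4, DDIT3, all genes of lists of up to 5, the 3 genes with the largest absolute change that passed in each longer list, rows that overlap one of the 10, and VIRMA and marker genes as checks. Alternatives were DESeq2 1.42.0, limma-voom 3.58.1, 3 other scalings, 3 other filters on low counts, a replicate block, leaving out each library, stricter thresholds, and, for levels, CPM or canonical transcript length. Promoters came from RefSeq and were searched on both strands. Transcripts came from GENCODE 44.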

Additional observations from a re-analysis of the deposited data

How the results depend on the processing

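The 8 genes that passed kept their direction and their call with DESeq2, limma-voom, the other scalings and filters, the replicate block, and without each library in turn, where 2 libraries stand against 1 that is assumed to vary like the others. EIF2AK2 turned positive, without passing, with upper-quartile factors (0.040) and library totals (0.052). EIF2B4 turned negative, without passing, with filterByExpr (-0.019), no filter (-0.010) and at least 10 counts in every library (-0.005), ranged from -0.030 to 0.075 when a library was left out, and passed with library totals (0.108). The cause of these changes was not tested. The upper-quartile and library-total scalings raised the log2 fold change of all shared genes by a median of 0.072 and 0.083. With a 2-fold threshold, 1 gene was higher and 0 lower, and against 1.2-fold 0 were lower. The median of the 10 genes became 0.068 and 0.080 with those scalings and ranged from -0.041 to 0.030 without a library. Without a filter on low counts the median turned to -0.028 for the eIF2-independent factors and to 0.091 for the interferon-stimulated genes. The share of EIF2AK1 among the kinases was 1.03 times as high in VIRMA-overexpressing libraries in CPM and 1.02 times with canonical lengths.

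The labels give both groups replicate numbers 1 and 2. Deviations of same-numbered libraries from their group means correlated at 0.0755 across genes. With 2 libraries a group both pairs give the same value, which cannot show whether same-numbered libraries shared a culture or preparation. With the replicate block the log2 fold change of EIF2B4 was 0.025 and the counts stayed at 4 higher and 4 lower.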
